A study of Mus musculus with 16 samples.

Results

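The genes described here encode 8 subunits of the GABA-A receptor: the alpha subunits Gabra2, Gabra3, Gabra4 and Gabra5, the beta subunits Gabrb1 and Gabrb2, the delta subunit Gabrd and the gamma subunit Gabrg1. They were read with every probe set on the array to which the platform annotation gives exactly 1 gene symbol, that symbol being one of these 8. This gave 23 probe sets of 8 genes, out of 34945 probe sets and 18193 genes with 1 gene symbol per probe set. Gabra2 and Gabrb2 had 5 probe sets each, Gabrb1 had 4, Gabra3, Gabra4, Gabrd and Gabrg1 had 2 each, and Gabra5 had 1. By mean level, 19 of the 23 lay at or above the 40th percentile of all probe-set means, and the 4 below it, here called dim, were not called in any comparison.

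RNA was taken from the whole striatum of mice on a mixed B6xCBA background and hybridised to Affymetrix mouse genome arrays, 1 array per biological replicate. The 16 arrays fall into 4 genotypes with 4 arrays each. R6/2 x DREAM+/- mice carry the R6/2 transgene and lack 1 copy of the gene for DREAM, DREAM+/- mice lack 1 copy and carry no transgene, R6/2 mice carry the transgene with both copies present, and wild-type mice have neither change. R6/2 is a mouse model of Huntington's disease that expresses the first exon of the human huntingtin gene with a long CAG repeat throughout the body, so cells outside the striatum carry it too. DREAM, encoded by Kcnip3, is a calcium-binding repressor of transcription. The labels state neither the age nor the sex of the mice. The labels name striatal neurons as the cell type, but the RNA was from tissue, and markers of glia were bright: in R6/2 and wild-type striatum, the oligodendrocyte gene Mbp averaged 14.05 and 14.11 and the astrocyte gene Aqp4 10.53 and 10.68 on the log2 scale.

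GABA-A receptors are chloride channels that open when GABA binds and carry most fast inhibition in the brain. Each receptor is built from 5 subunits, usually alpha and beta subunits with a gamma or a delta subunit, and the alpha subunit sets much of its kinetics and pharmacology. Many receptors with a gamma subunit cluster at synapses. Receptors that pair alpha 4 with delta, and many that hold alpha 5, lie outside synapses and carry a tonic current. Medium spiny neurons, the GABA-releasing projection neurons that make up most neurons of the striatum, are known to express Gabra2, Gabra4 and Gabrd among others. All values below are log2 levels as deposited, a difference of 1 is a doubling, and levels of different probe sets are not compared, since each binds its target with its own strength.

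Of the 8 genes, 4 lie in a row on mouse chromosome 5, in the order Gabrg1, Gabra2, Gabra4 and Gabrb1, with Cox7b2 as the only other protein-coding gene inside the row. Gabra3 is on chromosome X, Gabra5 on chromosome 7, Gabrb2 on chromosome 11 and Gabrd on chromosome 4. Gabra4 and Gabrb1 are read in opposite directions, with start sites 387 bases apart for the windows printed here. The promoter windows of these neighbours and of Gabra2 are printed because their probe sets behave differently in the comparisons that follow. They come from RefSeq on build GRCm38.p6 and run from 250 bases before to 50 bases after the annotated start, and capitals mark GTCA, the core letters of the element that DREAM binds, on either strand (TGAC when read on the other strand). Gabra4 is at chr5:71658259-71658558 on the minus strand, Gabrb1 at chr5:71657671-71657970 on the plus strand and Gabra2 at chr5:71095800-71096099 on the minus strand.
Gabra4: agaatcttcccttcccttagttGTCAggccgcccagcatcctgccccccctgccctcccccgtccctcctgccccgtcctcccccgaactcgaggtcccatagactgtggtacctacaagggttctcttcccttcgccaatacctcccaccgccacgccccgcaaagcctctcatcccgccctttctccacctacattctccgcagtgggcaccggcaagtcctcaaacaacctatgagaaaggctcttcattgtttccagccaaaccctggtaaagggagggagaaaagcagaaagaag
Gabrb1: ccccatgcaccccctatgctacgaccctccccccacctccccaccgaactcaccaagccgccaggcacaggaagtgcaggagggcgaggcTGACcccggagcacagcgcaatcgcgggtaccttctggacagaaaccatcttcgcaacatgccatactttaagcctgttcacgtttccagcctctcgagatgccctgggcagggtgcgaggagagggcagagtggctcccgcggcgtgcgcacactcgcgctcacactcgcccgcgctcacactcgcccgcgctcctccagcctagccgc
Gabra2: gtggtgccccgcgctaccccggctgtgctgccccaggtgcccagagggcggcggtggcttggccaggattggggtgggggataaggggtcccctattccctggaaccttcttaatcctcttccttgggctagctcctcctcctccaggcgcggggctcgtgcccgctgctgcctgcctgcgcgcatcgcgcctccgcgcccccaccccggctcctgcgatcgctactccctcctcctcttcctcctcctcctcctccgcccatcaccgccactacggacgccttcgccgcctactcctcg
The printed Gabra4 and Gabrb1 windows hold 1 GTCA match each, and these letters are not in the Gabra2 window. A further Gabrb1 window, at chr5:71699682-71699981 on the plus strand and not printed, holds 0 GTCA matches. Of 11 windows found for 7 of the 8 genes, 8 hold GTCA, and so do 85.2% of all 32851 promoter windows of the same length. The full cyclic AMP response element TGACGTCA, which contains GTCA, was in 0 of the 11 windows and in 1.79% of all windows. The EGR-factor motifs GCGTGGGCG and GCGGGGGCG were in 0 of the 11 windows, against 0.612% and 2.91% of all windows.

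The arrays had medians between 6.54 and 6.58, and arrays of the same genotype correlated at 0.9906 to 0.998 over probe sets. Both probe sets of the targeted gene Kcnip3 were lower in the groups labelled DREAM+/-. Probe set 1418544_at averaged 7.56 ± 0.12 in R6/2 x DREAM+/- and 9.11 ± 0.09 in R6/2 striatum, and 7.77 ± 0.04 in DREAM+/- and 9.67 ± 0.24 in wild-type striatum (SD, n = 4 each). The level was thus 34.1% of R6/2 with limma's adjusted p of 8.64e-08, and 26.9% of wild type with adjusted p of 3.67e-09. Probe set 1449129_a_at was at 16.6% of R6/2 and 13.0% of wild type. These levels are lower than the loss of 1 copy would leave if the other copy gave its usual output, and the arrays were grouped as labelled. Where the deletion lies relative to these probe sets is not stated in the labels. Kcnip3 was also lower in R6/2 than in wild type, by a log2 change of -0.56 on 1418544_at (adjusted p 0.000775). R6/2 replicate 1 stood apart from all others in Xist, at 6.49 against 11.04 to 12.16 in the other arrays. In the Y-linked gene Eif2s3y it was the highest, at 8.91 against 6.16 to 8.05. The Y-linked gene Kdm5d also varied among the other arrays. It was 6.31 to 6.72 in DREAM+/- and 4.94 to 6.06 in R6/2 x DREAM+/- arrays. It was 4.95 to 5.79 in R6/2 replicates 2 to 4, and 5.24, 5.25, 6.57 and 6.24 in wild-type arrays. Whether the sex of the mice differed between groups is not stated in the labels. On the first principal component, with 29.58% of the variance, all arrays labelled DREAM+/- lay between -19.63 and -4.02. The R6/2 and wild-type arrays lay between 9.11 and 23.81, except wild-type replicate 3 at -7.80. The Kcnip3 1418544_at level of that wild-type array was 9.51, within the range of its group. On the third principal component, replicate 3 of R6/2 x DREAM+/- lay far out, at -35.73 against -5.01 to 14.52. The gap between the 3' and 5' beta-actin control probe sets, a measure of how far the labelled RNA reaches toward the 5' end, was 1.10 in that array and 0.50 to 0.54 in the other R6/2 x DREAM+/- arrays. In DREAM+/- arrays it was 0.56 to 0.66, in R6/2 arrays 0.58 to 0.70, and in wild-type arrays 0.76, 0.66, 0.44 and 1.03.

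Wild-type replicates 3 and 4, with the smallest and the largest actin gap of their group, also took opposite ends for many of the subunits. Replicate 3 was the highest of the 4 wild-type arrays, ties counted, for 13 of the 23 probe sets, and replicate 4 was the lowest for 15 of the 23. Over all 34945 probe sets these shares were 25.3% and 29.5%. Where leaving out 1 of these arrays, or taking the actin gap as a covariate (chosen after seeing the data), changed the call of a subunit named below, the value is given beside it.

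The first question was which subunits differ between mice with and without the R6/2 transgene, on either DREAM background. In R6/2 against wild-type striatum, Gabrd, Gabra4 and Gabra2 fell, and no probe set of the 8 genes rose. The call covers 4 of the 23 probe sets, all lower, against 13.2% of all probe sets tested (6.42% lower and 6.74% higher), at an adjusted p under 0.05 from limma fitted to all probe sets and arrays. Of the same genes, 1 probe set each fell in R6/2 x DREAM+/- against DREAM+/- striatum, 3 of 23 in all, against 6.93% of all probe sets (4.01% lower). Probe sets of 1 gene are not independent of each other, so these are counts over 3 genes in each comparison. The median change of the 23 probe sets was -0.01 in R6/2 against wild type and -0.03 in R6/2 x DREAM+/- against DREAM+/-, beside medians of 0.03 and 0.01 over all probe sets.

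Gabrd, the subunit that marks extrasynaptic receptors, had the largest fall of the 8 genes in both comparisons. Its bright probe set 1449980_a_at stood at 9.76, 9.55, 9.59 and 9.82 in the 4 R6/2 arrays, against 10.55, 10.65, 10.61 and 10.72 in wild type. It stood at 9.44, 9.57, 9.92 and 9.33 in R6/2 x DREAM+/-, against 10.49, 10.45, 10.39 and 10.33 in DREAM+/-. The 8 arrays with the transgene were all below the 8 arrays without it. The R6/2 level was 51.7% of wild type (log2 change -0.95, 95% interval -1.16 to -0.74, adjusted p 1.06e-05), and the R6/2 x DREAM+/- level was 55.5% of DREAM+/- (-0.85, -1.06 to -0.64, adjusted p 6.26e-05). From high to low the genotypes ran wild type, DREAM+/-, R6/2 and R6/2 x DREAM+/-. The neighbours at either end of that order were not called different: DREAM+/- against wild type gave -0.22 (adjusted p 0.331, although the arrays did not overlap), and R6/2 x DREAM+/- against R6/2 gave -0.12 (adjusted p 0.531). The second Gabrd probe set, 1457763_at, was dim, and none of its differences between group means, which ran from 4.86 to 4.97, passed the test.

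Gabra4, the usual partner of delta in the striatum, fell less. On its brightest probe set, 1433707_at, the R6/2 arrays read 11.27, 11.14, 11.17 and 11.23, against 11.55, 11.49, 11.57 and 11.45 in wild type. The R6/2 x DREAM+/- arrays read 11.27, 11.35, 11.33 and 11.10, against 11.51, 11.65, 11.56 and 11.60 in DREAM+/-. In both comparisons the arrays did not overlap. The levels were 80.5% of wild type (-0.31, interval -0.44 to -0.19, adjusted p 0.00191) and 80.2% of DREAM+/- (-0.32, -0.44 to -0.19, adjusted p 0.00306). The second Gabra4 probe set, 1429330_at, was not called in either comparison, at -0.36 in R6/2 against wild type (adjusted p 0.162) and 0.04 in R6/2 x DREAM+/- against DREAM+/- (adjusted p 0.94). With the actin gap as a covariate its change in R6/2 against wild type was -0.46 (adjusted p 0.0107). On 1433707_at the order of genotypes was DREAM+/-, wild type, R6/2 x DREAM+/- and R6/2, and neither DREAM+/- against wild type (0.07, adjusted p 0.69) nor R6/2 x DREAM+/- against R6/2 (0.06, adjusted p 0.592) passed the test.

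Gabra2, a synaptic alpha subunit, was lower in R6/2 than in wild-type striatum on 2 probe sets. The brightest, 1455444_at, read 9.25, 9.11, 9.16 and 9.45 in R6/2 against 9.88, 9.72, 9.71 and 9.51 in wild type, with no overlap. It was at 72.6% of wild type (-0.46, interval -0.66 to -0.26, adjusted p 0.00382). Probe set 1443865_at read 8.29, 8.31, 8.43 and 8.70 in R6/2 against 8.83, 9.04, 8.69 and 8.72 in wild type, a change of -0.39 (adjusted p 0.00524) in which the highest R6/2 array, at 8.70, lay just above the lowest wild-type array, at 8.69. Against DREAM+/-, R6/2 x DREAM+/- striatum was lower on 1443865_at alone: 8.87, 8.95, 8.93 and 8.93 against 9.22, 9.25, 9.25 and 9.28, a change of -0.33 with adjusted p 0.0243. That call was lost without R6/2 x DREAM+/- replicate 1 or 4 or without any 1 of the DREAM+/- arrays, at an adjusted p of 0.0501 to 0.069, with changes of -0.34 to -0.31. On 1455444_at the R6/2 x DREAM+/- arrays read 10.01, 9.59, 9.73 and 9.74 against 10.06, 9.92, 9.95 and 10.13 in DREAM+/-, and the change of -0.25 did not pass (adjusted p 0.149). The dimmer 1421738_at averaged 7.78 ± 0.10 in R6/2 and 7.77 ± 0.31 in wild type (SD, n = 4 each; adjusted p 0.981), so the Gabra2 probe sets did not move alike.

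**Figure D1:**
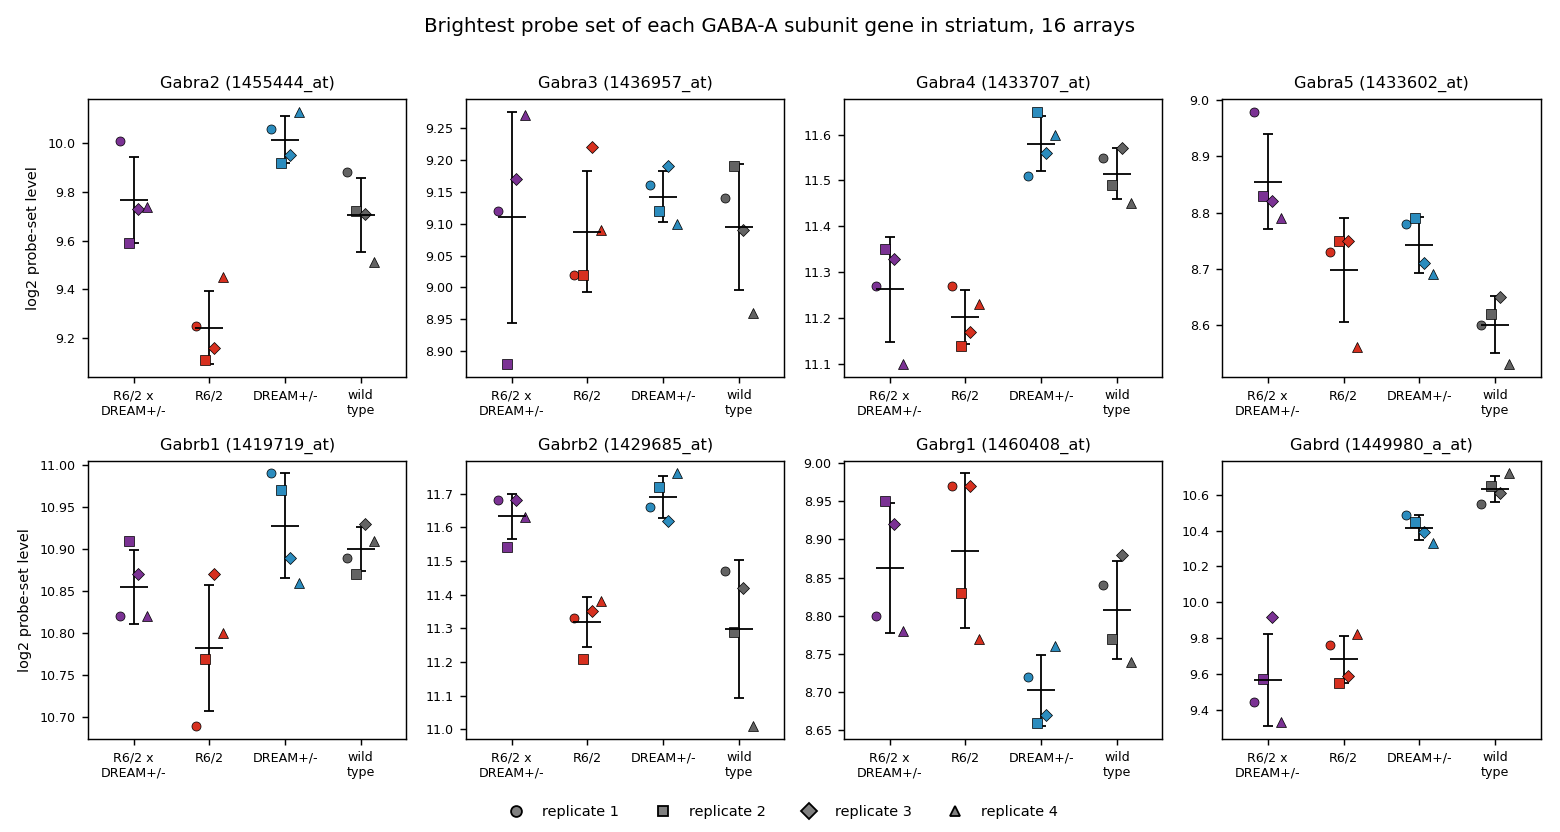
Log2 level of the brightest probe set of each of the 8 subunit genes, with each array a point whose shape gives its replicate number, each genotype a position on the horizontal axis and the group mean and SD a bar with whiskers. Gabrd lies between 9.33 and 9.92 in the 8 arrays with the R6/2 transgene and between 10.33 and 10.72 in the 8 without it.

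The remaining subunits had no probe set called in either R6/2 comparison. Gabra3, an alpha subunit of synaptic receptors, gave changes near 0: 1436957_at read 9.02, 9.02, 9.22 and 9.09 in R6/2 against 9.14, 9.19, 9.09 and 8.96 in wild type, a change of -0.01 with an interval of -0.17 to 0.15. The R6/2 x DREAM+/- arrays read 9.12, 8.88, 9.17 and 9.27 against 9.16, 9.12, 9.19 and 9.10 in DREAM+/-, a change of -0.03 (interval -0.19 to 0.13). The arrays of all 4 genotypes overlapped on this probe set. The second Gabra3 probe set, 1421263_at, ran from 6.60 to 8.01 in R6/2 x DREAM+/- and was not called in any comparison. Gabra5, the alpha subunit of a further class of tonic receptor, changed by 0.10 in R6/2 against wild type (adjusted p 0.302) and by 0.11 in R6/2 x DREAM+/- against DREAM+/- (adjusted p 0.304).

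Of the beta subunits, which carry part of the GABA-binding site, Gabrb1 gave -0.12 on its brightest probe set 1419719_at in R6/2 against wild type (interval -0.22 to -0.01, adjusted p 0.141) and -0.07 in R6/2 x DREAM+/- against DREAM+/- (adjusted p 0.49). Gabrb2, the beta subunit of the most widespread synaptic receptors in brain, gave 0.02 and -0.06 on 1429685_at in the same comparisons (adjusted p 0.909 and 0.781). None of the other 7 probe sets of these genes was called in either comparison. Gabrg1, a gamma subunit that is also found in glia, gave 0.08 on 1460408_at in R6/2 against wild type (adjusted p 0.448). This probe set read 8.80, 8.95, 8.92 and 8.78 in R6/2 x DREAM+/- against 8.72, 8.66, 8.67 and 8.76 in DREAM+/-, which did not overlap but did not pass either (0.16, adjusted p 0.132). On the dimmer Gabrg1 probe set 1427227_at, the change in R6/2 against wild type was 0.22 (adjusted p 0.252) with all arrays and 0.36 (adjusted p 0.0179) without wild-type replicate 3, which read 7.89 beside 7.18 to 7.44 in the other wild-type arrays. Groups without overlap made up 3 of 23 probe sets in R6/2 against wild type, all lower, against 17.0% of all probe sets (7.91% lower). They made up 5 of 23 in R6/2 x DREAM+/- against DREAM+/-, 2 higher and 3 lower, against 12.8% (7.01% higher and 5.81% lower).

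**Figure D2:**
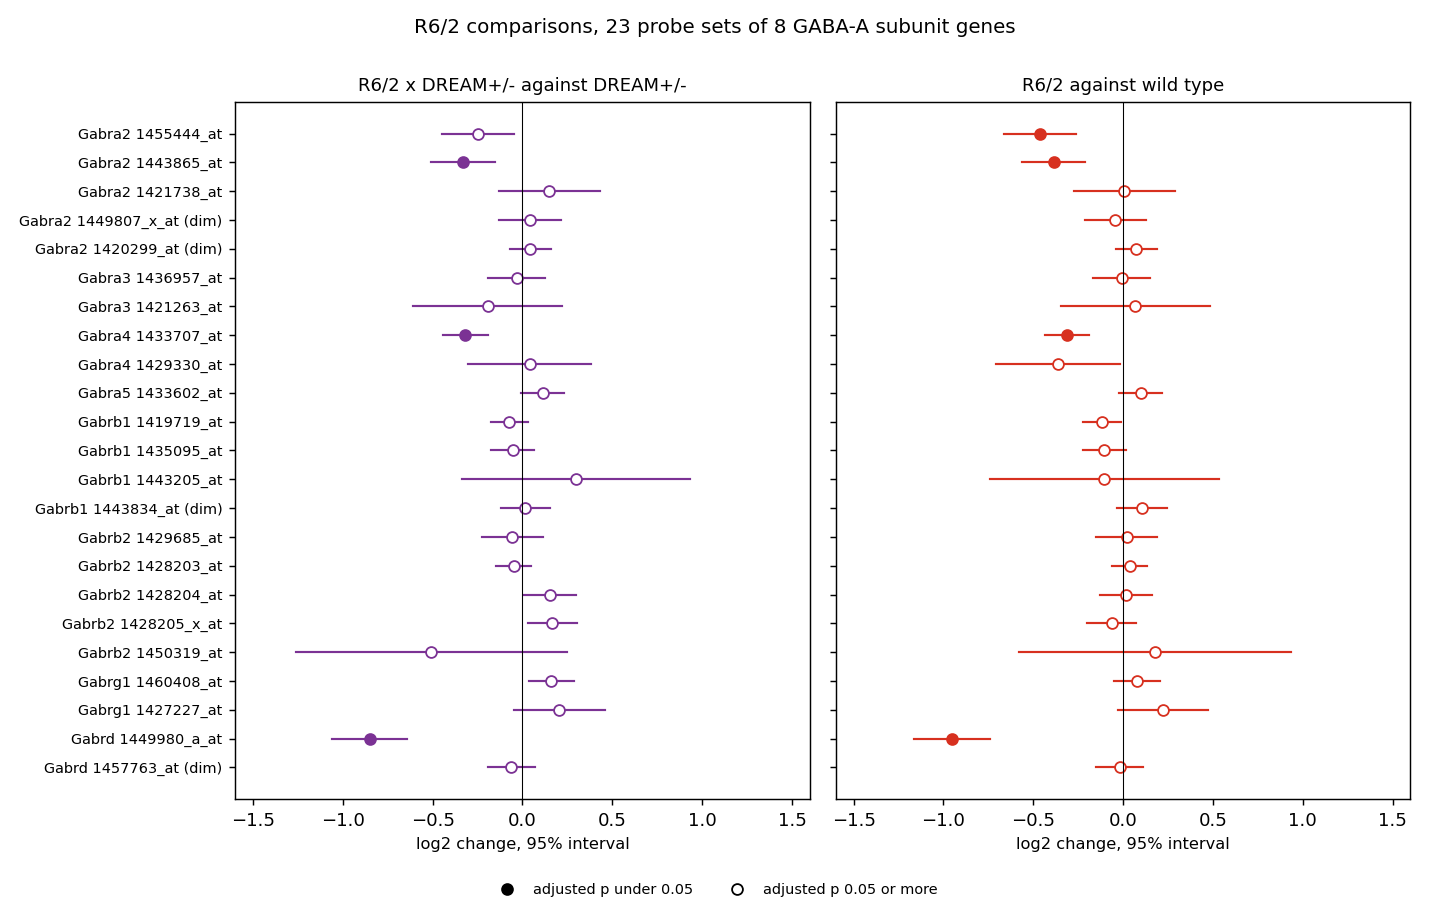
Log2 change of each of the 23 probe sets with its 95% interval, for R6/2 against wild type and for R6/2 x DREAM+/- against DREAM+/-, with filled points for an adjusted p under 0.05 and "dim" for a mean below the 40th percentile. Filled points lie left of 0 for Gabrd 1449980_a_at, Gabra4 1433707_at and Gabra2 1443865_at in both panels and for Gabra2 1455444_at in R6/2 against wild type alone.

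Markers of cell types moved with the R6/2 transgene as well. Of 16 measured medium spiny neuron markers, 11 fell and 0 rose in R6/2 against wild type (median -0.64), and 12 fell in R6/2 x DREAM+/- against DREAM+/- (median -0.55). Among them, Ppp1r1b, which encodes the dopamine-regulated phosphatase inhibitor DARPP-32, changed by -0.76 and the enkephalin precursor gene Penk by -0.90 in R6/2 against wild type (adjusted p 2.85e-05 and 2.03e-06). The log2 of their summed level was 15.69 to 15.98 in R6/2 x DREAM+/- and 16.28 to 16.37 in DREAM+/- arrays, and 15.78 to 15.91 in R6/2 and 16.37 to 16.44 in wild-type arrays. Interneuron markers fell for 6 of 12 in each of the same comparisons, oligodendrocyte markers for 4 and 3 of 9, and astrocyte markers for 2 of 10 in each. Of all genes, 15.7% were called in R6/2 against wild type and 8.34% in R6/2 x DREAM+/- against DREAM+/-. In R6/2 against wild type limma called 0 of 6 oligodendrocyte precursor, 0 of 8 microglial, 0 of 8 vascular and 0 of 5 choroid plexus markers, with 2, 2, 0 and 0 of them at an unadjusted p under 0.05. The part of these shifts in the subunit results was not tested. In tissue RNA, fewer cells of a type and less RNA per cell cannot be told apart. The genes whose centred values over the 16 arrays lay nearest to those of Gabrd included a marker of that list: Rgs9 (mean absolute difference 0.0673), then Pradc1 (0.0706) and Rasgrp2 (0.0713), beside a median of 0.466 over 13010 genes. The nearest to Gabra4 were Ntrk3 (0.0413), Fnbp1l (0.0445) and Slc8a3 (0.0467), beside a median of 0.193.

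Markers of cortical projection neurons moved too, and in both comparisons that include the R6/2 arrays. Of 11 measured, 6 fell in R6/2 against wild type (median -0.20) and 5 rose in R6/2 x DREAM+/- against R6/2 (median 0.33). In the latter comparison 7.64% of all genes were called. In R6/2 x DREAM+/- against DREAM+/-, limma called 0 of the 11, with 2 at an unadjusted p under 0.05. Slc17a7, the vesicular glutamate transporter of cortical neurons, changed by -0.92 in R6/2 against wild type, with adjusted p 0.00115. The summed level of the list was 12.15 to 12.37 in R6/2 x DREAM+/-, 12.33 to 12.55 in DREAM+/-, 11.91 to 12.05 in R6/2 and 12.23 to 12.37 in wild-type arrays, so the R6/2 arrays were the lowest. With the mean of these markers as a covariate, Gabrd and Gabra4 1433707_at were still called lower in R6/2 than in wild type. Gabra2 was not called, at -0.50 (adjusted p 0.0625) on 1455444_at and -0.30 (adjusted p 0.207) on 1443865_at. Without the covariate its changes were -0.46 and -0.39. Calls over all probe sets numbered 1736 with the covariate and 4599 without it. The covariate itself differs with genotype, and whether these markers account for the Gabra2 change was not tested.

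The next question was whether the subunits differed between mice labelled DREAM+/- and mice not so labelled, with and without the transgene. In R6/2 x DREAM+/- against R6/2 striatum, 7 probe sets of 4 genes (Gabra2, Gabra4, Gabrb1 and Gabrb2) rose and 0 fell, against 7.76% of all probe sets called (3.53% higher and 4.22% lower). In DREAM+/- against wild type, 2 probe sets rose and 0 fell, against 2.26% of all (1.15% higher and 1.11% lower). The 23 probe sets had median changes of 0.06 and 0.07 in these comparisons, beside -0.03 and -0.01 over all probe sets. R6/2 x DREAM+/- against R6/2 uses the same R6/2 arrays as R6/2 against wild type, so a gene that is low in those arrays moves in both with opposite sign, and the comparisons are not independent of each other. Groups without overlap numbered 9 of 23 in R6/2 x DREAM+/- against R6/2, all higher, against 12.8% of all probe sets (5.71% higher and 7.10% lower). They numbered 6 of 23 in DREAM+/- against wild type, 4 higher and 2 lower, against 9.21% (3.87% higher and 5.34% lower). Of 8 microglial markers, 1 rose in each of the same comparisons, against 7.64% and 2.1% of all genes called (medians 0.17 and 0.16). By limma, 5 of the 8 had an unadjusted p under 0.05 in each, beside 8130 and 4896 of all 34945 probe sets. Their log2 summed level was 12.86 to 12.97 in R6/2 x DREAM+/- and 12.64 to 12.75 in R6/2 arrays. It was 12.93 to 12.98 in DREAM+/- and 12.59 to 12.82 in wild-type arrays. The part of this shift in the subunit results was not tested.

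Gabra2 rose in R6/2 x DREAM+/- against R6/2 on its 2 brightest probe sets, and the third, 1421738_at, did not pass (0.42, adjusted p 0.0626). From the array values given above, 1455444_at was 1.44-fold higher (log2 change 0.53, interval 0.32 to 0.73, adjusted p 0.0038) and 1443865_at 1.40-fold higher (0.49, interval 0.31 to 0.67, adjusted p 0.00262), with no overlap on either. On 1443865_at DREAM+/- was also 1.35-fold higher than wild type (0.43, interval 0.25 to 0.61, adjusted p 0.0105), and the 4 DREAM+/- arrays, at 9.22 to 9.28, were above all others in the study. On 1455444_at the change in DREAM+/- against wild type was 0.31, and it did not pass (adjusted p 0.113), although the arrays did not overlap. The genotype order on 1443865_at was DREAM+/-, R6/2 x DREAM+/-, wild type and R6/2, in which only R6/2 x DREAM+/- and wild type were neighbours not called different (0.10, adjusted p 0.497). With the cortical markers as a covariate, the difference of R6/2 x DREAM+/- from R6/2 was 0.56 (adjusted p 0.0544) on 1455444_at and 0.40 (adjusted p 0.0932) on 1443865_at. Without the covariate these differences were 0.53 and 0.49. The nearest genes to the brightest Gabra2 probe set over the 16 arrays were Elovl1 (0.0993), Id2 (0.103) and Dgkz (0.113), beside a median of 0.288.

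For Gabra4 and Gabrb1, whose printed promoter windows lie close together, only a less bright probe set was called in R6/2 x DREAM+/- against R6/2. Gabra4 1429330_at read 10.83, 10.48, 10.13 and 10.36 in R6/2 x DREAM+/- against 9.94, 9.71, 9.82 and 9.70 in R6/2, a 1.58-fold higher level (0.66, SE 0.16, adjusted p 0.0214). Gabrb1 1443205_at read 9.07, 8.72, 8.46 and 8.64 in R6/2 x DREAM+/- against 7.56, 7.37, 7.26 and 6.93 in R6/2, a 2.72-fold higher level (1.44, interval 0.81 to 2.08, adjusted p 0.00895). The arrays did not overlap on either probe set. The brightest probe sets of both genes were not called in the same comparison, at 0.06 for Gabra4 1433707_at (adjusted p 0.592) and 0.07 for Gabrb1 1419719_at (adjusted p 0.417), nor was Gabrb1 1435095_at at 0.12 (adjusted p 0.198). The places in the transcripts that these probe sets read are not stated in the labels or the annotation. The Gabra4 call was lost without R6/2 x DREAM+/- replicate 1 or 2 or R6/2 replicate 2 or 4, at an adjusted p of 0.0545 to 0.0645.

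The same 2 probe sets had positive changes in DREAM+/- against wild type, which did not pass with all arrays. Gabrb1 1443205_at read 8.35, 8.32, 8.41 and 8.62 in DREAM+/- against 7.54, 7.14, 8.53 and 6.33 in wild type. That change of 1.04 (adjusted p 0.088) became 1.42 (adjusted p 0.000866) without wild-type replicate 3, the array at 8.53, and 1.03 (adjusted p 0.0155) with array weights. Gabra4 1429330_at read 10.36, 10.45, 10.34 and 10.49 in DREAM+/- against 10.05, 9.99, 10.76 and 9.82 in wild type. Its change of 0.26 (adjusted p 0.525) became 0.46 (adjusted p 0.0406) without the same array, at 10.76. Gabra2 1421738_at gave 0.28 (adjusted p 0.363) in DREAM+/- against wild type and 0.43 (adjusted p 0.0369) without that array. It gave 0.42 in R6/2 x DREAM+/- against R6/2, with adjusted p 0.0626 over all arrays, and it passed without wild-type replicate 3 or 4 or R6/2 x DREAM+/- replicate 3 (adjusted p 0.0159 to 0.0448), with array weights (0.46, adjusted p 0.0191) and with the actin gap as a covariate (0.45, adjusted p 0.00669).

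**Figure D3:**
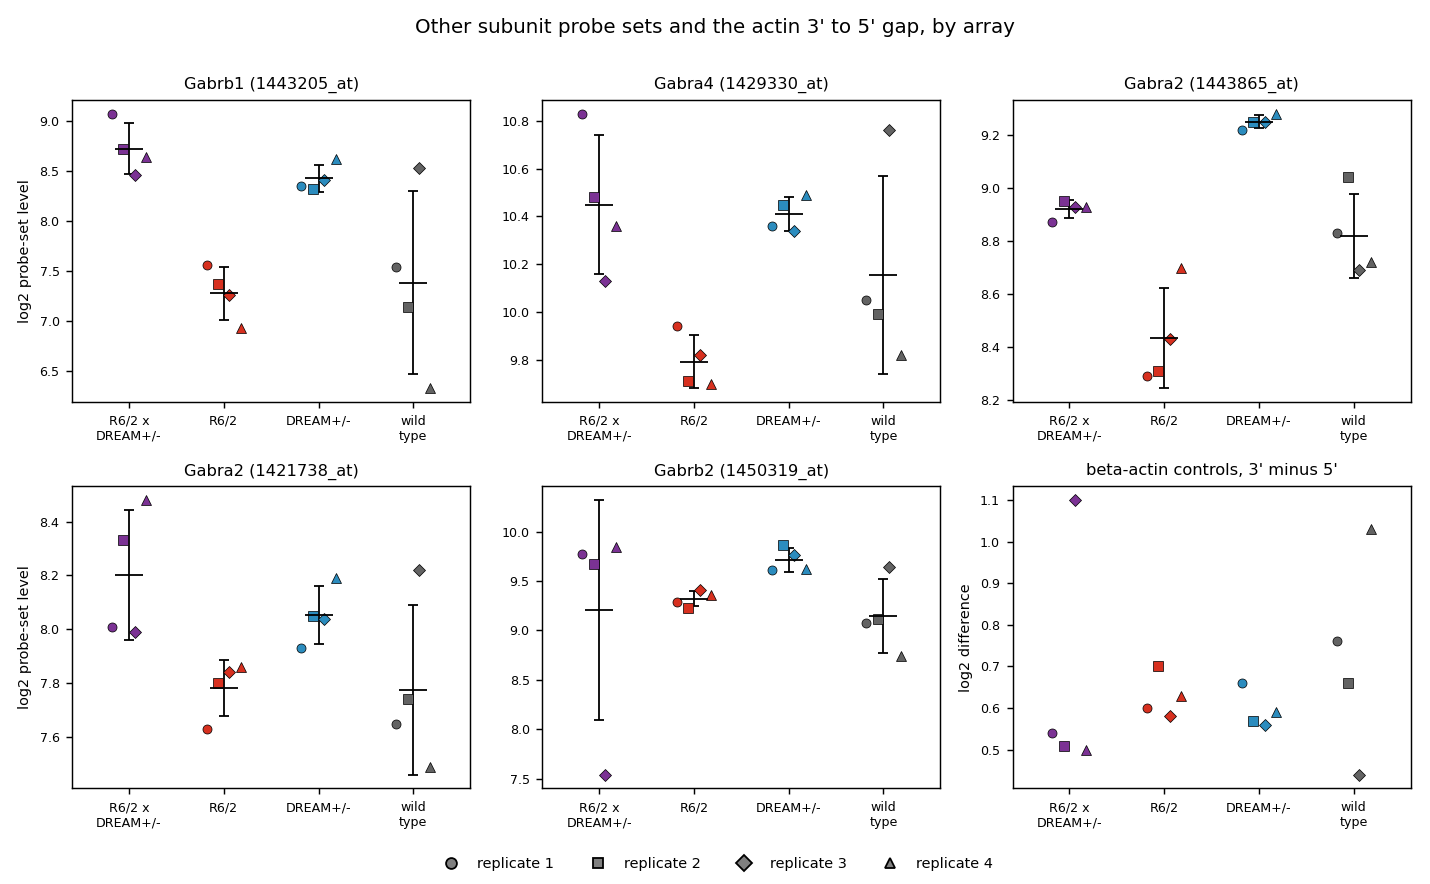
Log2 level by array of less bright subunit probe sets, and in the last panel the log2 gap between the 3' and 5' beta-actin controls, with point shape for replicate number and, in the probe-set panels, a bar and whiskers for the group mean and SD. In Gabrb1 1443205_at the wild-type arrays spread from 6.33 to 8.53, while the R6/2 x DREAM+/- arrays, at 8.46 to 9.07, all lie above the R6/2 arrays, at 6.93 to 7.56.

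Gabrb2 was higher in both DREAM+/- groups on its brightest probe set. Probe set 1429685_at read 11.68, 11.54, 11.68 and 11.63 in R6/2 x DREAM+/- against 11.33, 11.21, 11.35 and 11.38 in R6/2, a 1.24-fold higher level (interval 0.14 to 0.49 on the log2 scale, adjusted p 0.0255). It read 11.66, 11.72, 11.62 and 11.76 in DREAM+/- against 11.47, 11.29, 11.42 and 11.01 in wild type, a 1.31-fold higher level (0.39, interval 0.22 to 0.56, adjusted p 0.0145). All 8 arrays labelled DREAM+/-, with or without the transgene, at 11.54 to 11.76, were above the other 8, at 11.01 to 11.47. Without R6/2 replicate 1 and R6/2 x DREAM+/- replicate 3, the arrays that stand apart, the difference from R6/2 was 0.30 with adjusted p 0.0639, and with the cortical markers as a covariate it was 0.31 with adjusted p 0.184, beside 0.31 without the covariate. It was also lost without R6/2 x DREAM+/- replicate 1 or 4 or R6/2 replicate 1 or 2 (adjusted p 0.0519 to 0.0749). The difference of DREAM+/- from wild type was lost without DREAM+/- replicate 2 or 4 (adjusted p 0.0512 and 0.0549).

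The other Gabrb2 probe sets did not all follow. In R6/2 x DREAM+/- against R6/2, 1428205_x_at rose by 0.30 (adjusted p 0.0109) and 1428204_at by 0.23 (adjusted p 0.0499), a call at the threshold that 17 of 27 alternative settings did not make. The second brightest, 1428203_at, changed by -0.14 (adjusted p 0.0678) in that comparison and by -0.06 (adjusted p 0.657) in DREAM+/- against wild type. Quantile normalization, the brightness filter, array weights and the trended and robust variance each called it lower in R6/2 x DREAM+/- than in R6/2, at -0.16 to -0.14 with an adjusted p of 0.039 to 0.0487. Probe set 1450319_at read 9.77, 9.67, 7.54 and 9.85 in R6/2 x DREAM+/- against 9.29, 9.23, 9.41 and 9.36 in R6/2, and 9.61, 9.87, 9.76 and 9.62 in DREAM+/- against 9.08, 9.12, 9.64 and 8.74 in wild type. The low value is that of R6/2 x DREAM+/- replicate 3, the array with an actin gap of 1.10, and with it no comparison was called. Without that array alone, which also narrows the shared estimate of spread, the change in DREAM+/- against wild type was still 0.57, with an adjusted p of 0.0227 in place of 0.519. The change in R6/2 x DREAM+/- against wild type was 0.62 (adjusted p 0.00515) without the array and 0.06 (adjusted p 0.939) with it. The nearest genes to 1429685_at over the 16 arrays were A030001D20Rik (0.0727), Csf1r (0.0731) and Reep3 (0.0752), beside a median of 0.21. Of these, Csf1r is on the list of microglial markers.

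Gabra5, Gabra3, Gabrg1 and Gabrd had no probe set called in either DREAM comparison. Gabra5 1433602_at read 8.98, 8.83, 8.82 and 8.79 in R6/2 x DREAM+/- against 8.73, 8.75, 8.75 and 8.56 in R6/2, and 8.78, 8.79, 8.71 and 8.69 in DREAM+/- against 8.60, 8.62, 8.65 and 8.53 in wild type. Neither pair of groups overlapped, yet 0.16 (adjusted p 0.104) and 0.14 (adjusted p 0.256) did not pass. Gabra3 1436957_at gave 0.02 and 0.05 (adjusted p 0.898 and 0.854).

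**Figure D4:**
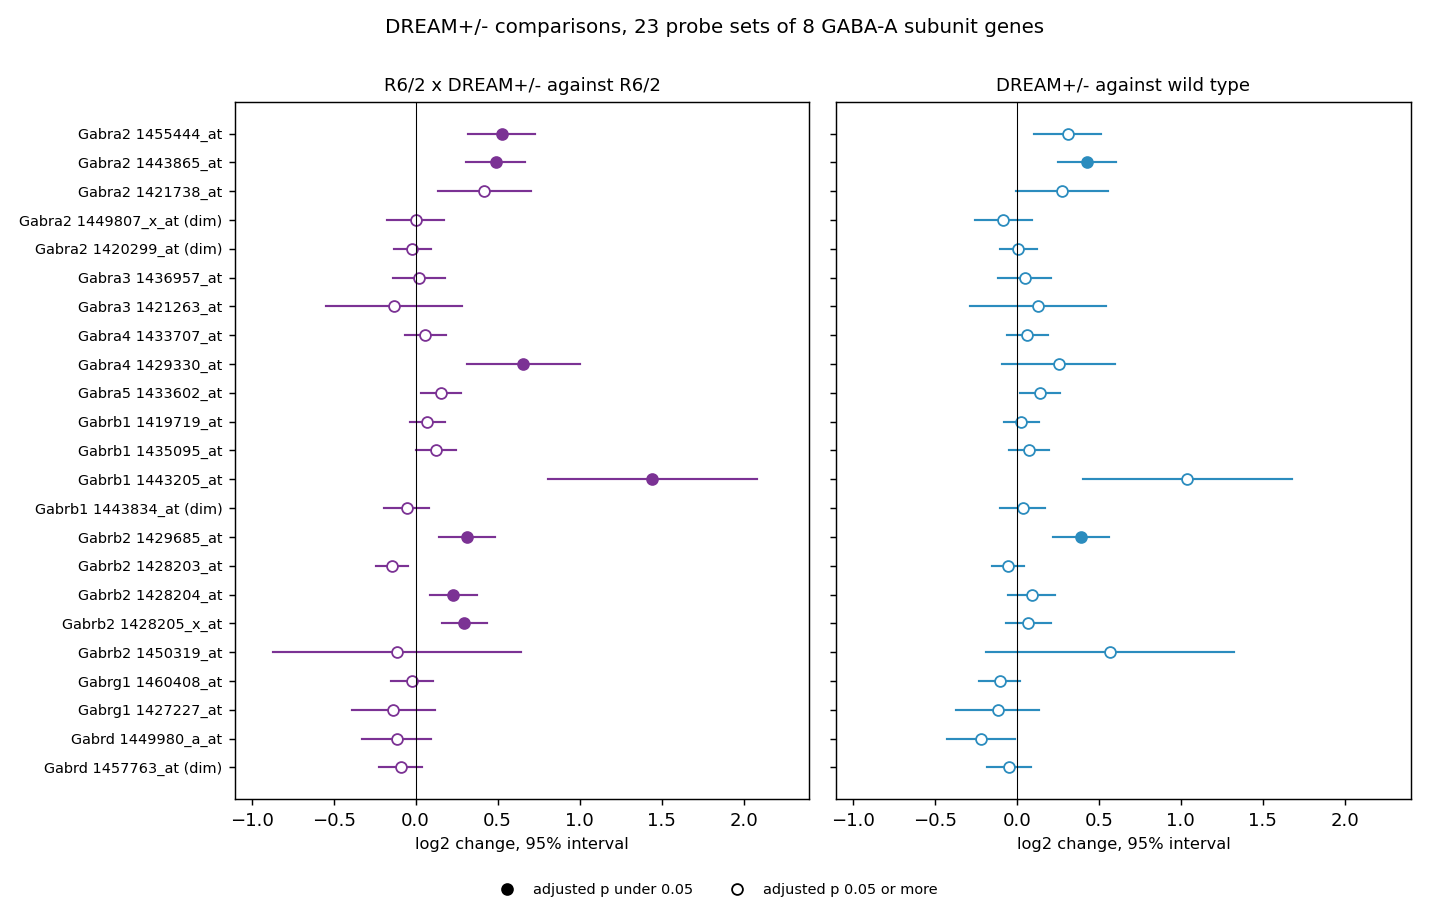
Log2 change of each of the 23 probe sets with its 95% interval, for R6/2 x DREAM+/- against R6/2 and for DREAM+/- against wild type, with filled points for an adjusted p under 0.05 and "dim" for a mean below the 40th percentile. The first panel has 7 filled points and the second 2, all right of 0, and Gabrd 1449980_a_at lies left of 0 in both without passing.

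R6/2 x DREAM+/- was also set against wild type, and there 8 probe sets of 6 genes were called, 6 higher and 2 lower, against 15.6% of all probe sets (7.11% higher and 8.50% lower). Groups without overlap numbered 5 of 23, 2 higher and 3 lower, against 14.2% of all probe sets (6.91% higher and 7.26% lower). Gabrd 1449980_a_at was at 47.7% of wild type (adjusted p 2.46e-06) and Gabra4 1433707_at was lower by a log2 change of -0.25 (adjusted p 0.00726). Gabra4 1429330_at had the opposite sign, at 0.30 (adjusted p 0.259), and was called higher, at 0.50 (adjusted p 0.00806), without wild-type replicate 3. Gabra5 rose in this comparison, 1.19-fold (adjusted p 0.00573), as did Gabrb2 1429685_at (adjusted p 0.00878), 1428204_at (adjusted p 0.0217) and 1428205_x_at (adjusted p 0.0192). Gabrb1 1443205_at was higher by 1.34 (adjusted p 0.00578) and Gabra2 1421738_at by 0.43 (adjusted p 0.0373). The calls of Gabrb2 1428204_at and 1428205_x_at were lost without R6/2 x DREAM+/- replicate 2 or 4 or wild-type replicate 2 or 4 (adjusted p 0.0554 to 0.0798), and that of Gabra2 1421738_at without these or wild-type replicate 1 (adjusted p 0.0857 to 0.126). The brightest Gabra2 probe set, 1455444_at, was at 9.77 ± 0.18 in R6/2 x DREAM+/- and 9.70 ± 0.15 in wild type (SD, n = 4 each), a change of 0.06 with adjusted p 0.745 and an interval of -0.14 to 0.26. The nearest genes to Gabra5 over the 16 arrays were Fbxo38 (0.0452), Epc2 (0.0465) and Psma3 (0.0469), beside a median of 0.136.

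Whether the effect of the transgene differed between the DREAM backgrounds was tested as an interaction, which is also the test of whether the DREAM effect differed with the transgene. It was called for 0 of the 23 probe sets, against 0% of all probe sets, with limma; 1 of the 23 and 2121 of all had an unadjusted p under 0.05. That probe set was Gabrb2 1428205_x_at, with an interaction of 0.23 (interval 0.04 to 0.42, adjusted p 0.799). For Gabrd 1449980_a_at the interaction was 0.10 with an interval of -0.19 to 0.40, so the fall with the transgene was not shown to be smaller on the DREAM+/- background.

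Of 40 other genes of GABA signalling that were listed, 33 were measured, each by its brightest probe set. In R6/2 against wild type 4 rose and 0 fell, against 15.7% of 18193 genes called. Radixin (Rdx), which anchors alpha 5 receptors outside synapses, changed by 0.39 (adjusted p 0.000369), Hap1, the huntingtin-associated protein of receptor trafficking, by 0.35 (adjusted p 0.00398) and Zdhhc3, a palmitoyltransferase, by 0.32 (adjusted p 0.0304). The dim cerebellar subunit Gabra6 changed by 0.23 (adjusted p 0.00901). By the same limma test 0 of the 8 measured genes of GABA synthesis, packing, uptake and breakdown were called (1 of 8 at an unadjusted p under 0.05), among them the GABA-making enzymes Gad1 (-0.09, adjusted p 0.385) and Gad2 (0.01, adjusted p 0.978) and the vesicular transporter Slc32a1 (0.10, adjusted p 0.266). Rdx alone was called in R6/2 x DREAM+/- against DREAM+/-, at 0.30 (adjusted p 0.00589), against 8.34% of genes.

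In R6/2 x DREAM+/- against R6/2, 1 of these 33 genes rose and 3 fell, against 7.64% of genes called. The subunit Gabrg3 was higher by 0.45 (adjusted p 0.0367), while Hap1 changed by -0.43 (adjusted p 0.00233), Slc32a1 by -0.24 (adjusted p 0.0178) and the dim rho subunit Gabrr2 by -0.22 (adjusted p 0.0433). In DREAM+/- against wild type 0 of the 33 were called with limma, against 2.1% of genes. By limma, 7 of the 33 had an unadjusted p under 0.05, beside 4896 of all 34945 probe sets. In R6/2 x DREAM+/- against wild type 3 rose and 4 fell, against 16.9%: Rdx (0.41, adjusted p 0.000198) and the chloride importer Slc12a2 (0.30, adjusted p 0.0091) were among those that rose, and Gad1 (-0.20, adjusted p 0.0331) and the GABA transporter Slc6a11 (-0.36, adjusted p 0.0277) among those that fell.

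**Figure D5:**
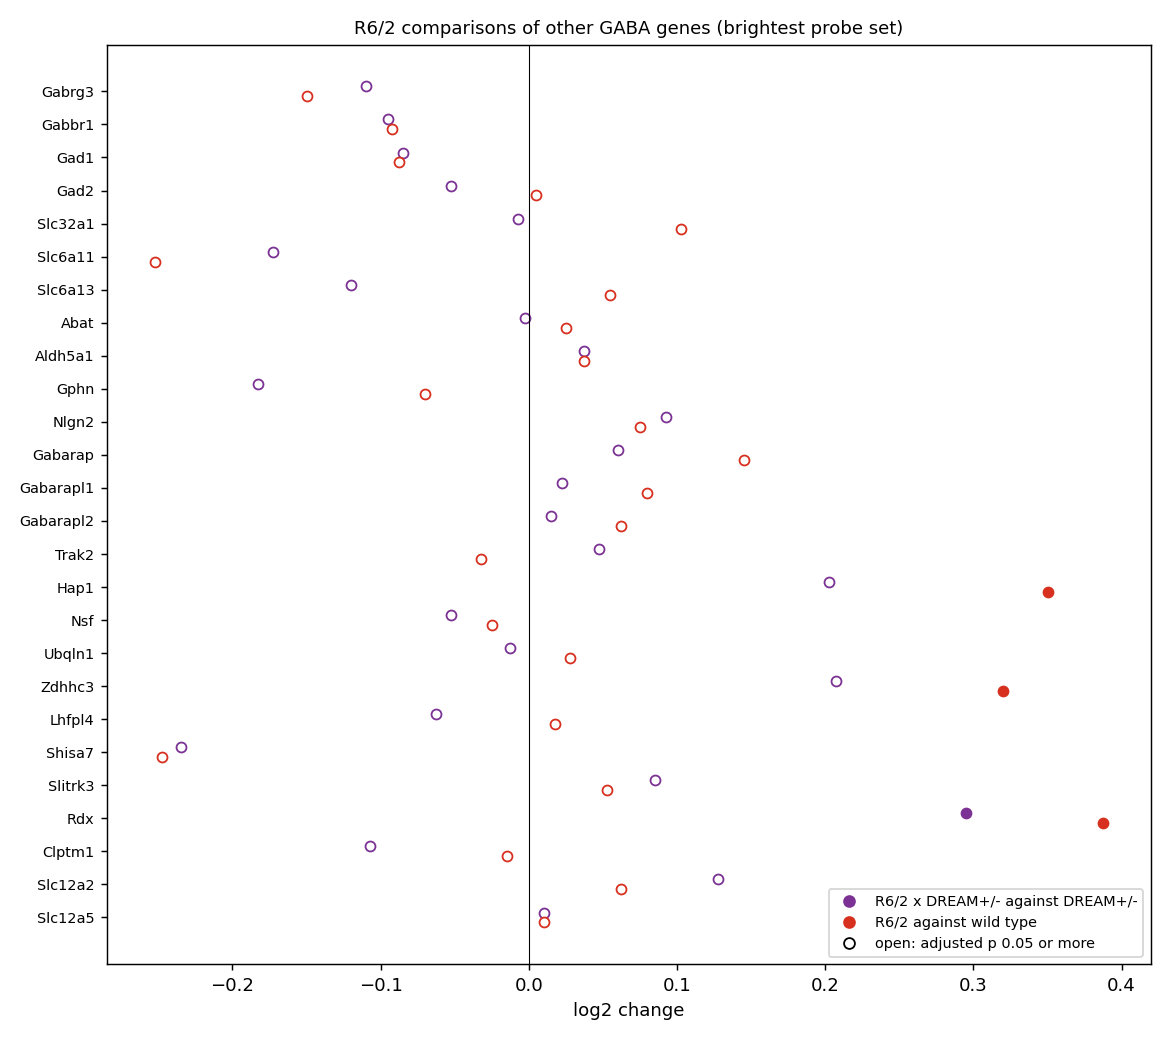
Log2 change of 26 of the 33 other GABA genes, those whose brightest probe set had a mean at or above the 40th percentile, in the comparisons of mice with and without the R6/2 transgene, with open points for an adjusted p of 0.05 or more. Rdx is filled in both comparisons, at 0.39 in R6/2 against wild type and 0.30 in R6/2 x DREAM+/- against DREAM+/-.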

How the data were processed

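Probe-set levels on the log2 scale are as deposited by the authors, in 1 table for all 16 arrays. RMA and affy are named in the submitters' processing notes without a version or a role. RMA sets all arrays to 1 distribution, so a change shared by most genes is removed, and the number of arrays limits the precision. The table held 45101 probe sets. Of these, 34945 had 1 gene symbol in the platform annotation and were tested, and 932 with several symbols, 9160 with none and 64 controls were left out.

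Genotypes came from the sample titles, with 4 biological replicates each. A limma 3.58.1 fit in R 4.3.3 (lmFit, eBayes) used 1 mean per genotype over all 16 arrays. The text names each comparison's log2 change as the first group minus the second. P-values were adjusted by Benjamini-Hochberg over all 34945 probe sets in each comparison and called under 0.05, and intervals are 95%. No filter on dim probe sets was used. The fit was tested on simulated data.

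All 23 member probe sets are accounted for, with the brightest of each gene in full. Other GABA genes and marker genes were counted by their brightest probe set, and up to 6 GABA genes and 4 markers were named in a comparison. Nearest patterns are the 3 genes with the smallest mean absolute difference of centred values. The members, the lists and the tests were chosen with earlier results of these data known. Promoter windows were matched by symbol to RefSeq, and Gabrd had no entry. Alternatives changed the normalization, the brightness filter, array weights, the variance model, the arrays fitted, a replicate block and 3 covariates, of which the actin gap was added after seeing the data. The 7 listed GABA genes beyond those measured were not analysed here.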

Additional observations from a re-analysis of the deposited data

Results flagged for a closer look

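Over the 23 subunit and 2 Kcnip3 probe sets in 4 genotypes, which makes 100 sets of 4 arrays, 3 subunit values lay far enough from the other 3 arrays to pass Dixon's test at the 95% level, which chance passes in about 1 of 20. Gabrb2 1450319_at stood at 7.54 in replicate 3 of R6/2 x DREAM+/-, with the rest of that genotype between 9.67 and 9.85. Gabra5 1433602_at was 8.56 in R6/2 replicate 4, against 8.73 to 8.75 in the others. The dim Gabra2 1420299_at was 3.84 in R6/2 replicate 3, against 3.91 to 3.92 in the others.

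For Gabrb2 1428205_x_at the R6/2 difference was 0.165 on the DREAM+/- background and -0.06 on the wild-type background. The difference between these was tested and did not pass (0.23, unadjusted p 0.0231, adjusted p 0.799).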

How the results depend on the processing

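Over 27 alternatives, none of which turned the sign of a called change, the lower levels of Gabrd 1449980_a_at and Gabra4 1433707_at in both comparisons with and without the R6/2 transgene were called each time. Among the DREAM comparisons, the higher Gabra2 1443865_at in DREAM+/- than in wild type and the higher Gabrb1 1443205_at in R6/2 x DREAM+/- than in R6/2 were also called each time. With the cortical marker mean as a covariate, subunit calls numbered 2 in R6/2 against wild type and 2 in R6/2 x DREAM+/- against R6/2, and calls over all probe sets 1736 and 740, against 4, 7, 4599 and 2711. With only the groups compared in the fit, and so fewer arrays behind the spread, subunit calls were 1 in DREAM+/- against wild type and 2 in R6/2 x DREAM+/- against wild type, against 2 and 8, and calls over all probe sets were 1749 in R6/2 x DREAM+/- against R6/2 and 2785 in R6/2 x DREAM+/- against wild type, against 2711 and 5454. Array weights gave 3741 calls in R6/2 x DREAM+/- against DREAM+/- and 1550 in DREAM+/- against wild type, against 2420 and 790, and the mean of Y-linked Eif2s3y and Kdm5d as a covariate (Ddx3y was not analysed here) gave 524 in DREAM+/- against wild type. The actin gap as a covariate, chosen after seeing the data, gave 4564 calls in R6/2 x DREAM+/- against R6/2 and 1 for the interaction, where a common array median also gave 1, against 0. The cause of these shifts was not tested.

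Leaving out 1 array at a time gave 4 to 5 subunit calls in R6/2 against wild type, 2 to 3 in R6/2 x DREAM+/- against DREAM+/-, 1 to 5 in DREAM+/- against wild type (1 without DREAM+/- replicate 2 or 4, 5 without wild-type replicate 3), 4 to 8 in R6/2 x DREAM+/- against R6/2 (4 without R6/2 x DREAM+/- replicate 1 or R6/2 replicate 2), 5 to 9 in R6/2 x DREAM+/- against wild type (5 without R6/2 x DREAM+/- replicate 2 or 4 or wild-type replicate 2 or 4), and 0 for the interaction. Over all probe sets, in the same order, the ranges were 3567 to 5423, 1372 to 2875, 423 to 1403, 1410 to 3971, 3954 to 6546, and 0 to 1. The labels do not say whether replicate numbers pair the arrays, and correlations between so few arrays could not settle it. Same-numbered arrays had correlations of -0.461 to 0.317 over 24 pairs, 8 of them above 0.1. Of the 16 arrays, 6 correlated best with their own number. With the replicate block, the only subunit call that changed was Gabrb2 1428204_at in R6/2 x DREAM+/- against R6/2. It was lost (0.23, adjusted p 0.0614). Changes within the 4 dim probe sets are limited by signal near the bottom of the scale.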
